A study of Eucalyptus grandis
Pisolithus microcarpus and Eucalyptus grandis with 23 samples.

Results

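The dependence of the SI-9 root response on CO2 was described gene by gene in Eucalyptus grandis. For each gene the difference between roots with SI-9 and control roots at 650 ppm CO2 was set against the same difference at 400 ppm. This difference of differences, the interaction, was taken for all 27386 of the 36376 listed genes that had enough reads to be tested, and 7723 of them (28.2%) passed an adjusted p of 0.05. With near-identical libraries joined into sets and each set taken as 1 replicate, 101 passed. Genes that passed were then sorted by which of the 4 group means stood apart from the other 3.

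The 4 groups were control roots at 400 ppm (6 libraries), control roots at 650 ppm (5 libraries), and roots in contact with Pisolithus microcarpus strain SI-9 at 400 ppm and at 650 ppm (3 libraries each), 17 of the 23 libraries of the series. Seedlings grew in Petri dishes on medium with glucose, the mycelium was laid onto the root as a small square, and controls were kept without fungus for an equal time. CO2 was held constant at either level, and roots were harvested inside the growth chamber. Roots with strain SI-12 at 400 and 650 ppm (3 libraries each) did not enter the contrast but shared the estimate of spread. The tables list Eucalyptus genes. The labels do not say whether a library was made from 1 seedling or from several.

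Pisolithus species form ectomycorrhizas on eucalypts. Hyphae wrap the fine root in a mantle and grow between its outer cells in a Hartig net, where the plant passes sugars to the fungus and receives mineral nutrients. Elevated CO2 generally raises the carbon a plant can send to its roots, so the root's response to a fungus can depend on the CO2 level. A positive interaction means that the difference between SI-9 and control roots was more positive at 650 than at 400 ppm, and a negative interaction the reverse. The same value arises when control roots change with CO2 and SI-9 roots do not, or the other way round, which is why the genes were sorted by group mean. None of the gene IDs could be paired with a name or description here, so IDs stand for genes, no function is stated and no root tissue marker could be checked.

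Reads assigned to genes ran from 4497662 to 30210474 in the 17 libraries. Levels are given as CPM, the reads of a gene relative to the TMM-scaled gene reads of its library, and 3 reads in 1 library stand for 0.099 to 0.662 CPM depending on its depth. Libraries of a group fell into near-identical sets. Beyond counting noise, the coefficient of variation between 2 libraries was 0.102 to 0.131 inside these sets and 0.208 to 0.368 between sets of the same group. Control libraries 1 to 3 and 4 to 6 at 400 ppm, control libraries 1 and 2 and libraries 3 to 5 at 650 ppm, SI-9 libraries 1 and 3 and library 2 at 400 ppm, and SI-9 libraries 1 and 2 and library 3 at 650 ppm made up the 8 sets. The labels call the libraries biological replicates, but p-values measure the spread between libraries, which inside a set may be technical. The main counts are therefore printed with those obtained when each set was taken as 1 replicate.

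The interaction was positive in 4078 of the 7723 called genes (14.9% of those tested) and negative in 3645 (13.3%). Its median size among called genes was 1.35 as a fitted log2 value. In 4831 genes it was at least 1, in 2664 at least 2 and in 1621 at least 3. Without SI-9 library 2 at 400 ppm, 7900 genes were called (28%), 4317 positive and 3583 negative. Of these, 6803 were called in the same direction with the library and 0 in the opposite direction, while 920 calls were lost and 1097 gained. This fit keeps only SI-9 libraries 1 and 3 at 400 ppm, which form 1 near-identical set. It therefore holds no spread between sets for that group, so its calls and their overlap do not test the interaction between sets. With sets as replicates 101 genes were called (0.334% of 30216), 47 positive and 54 negative, and 4568 had an unadjusted p under 0.05. All 101 were among the 7723 and had the same direction. Leaving SI-9 library 2 at 400 ppm out of the sets gave 0 calls by edgeR, with 4084 genes at an unadjusted p under 0.05, and DESeq2 on all the sets called 1875 (6.21%). In the first of these fits SI-9 roots at 400 ppm are 1 set with no spread of its own, so its count says little about the interaction. Fewer root cells of a type and less RNA per cell cannot be told apart in such bulk samples.

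For 3730 of the called genes (48.3%) the interaction had the same sign for every choice of 1 library per group, against 14.2% of all genes tested. Both shares come from the libraries that gave the calls. A higher share among called genes follows from the calling and is no separate support. In the deposited names, libraries numbered 1 to 12 hold all SI-9 libraries together with control libraries 1 to 3 at 400 ppm and 1 and 2 at 650 ppm. A fit of these libraries alone called 6314 genes, and 4538 of them had the same call and direction with 23 libraries.

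Sorting assigned 2528 of the 7723 genes (32.7%) to a single group, meaning that the means of the other 3 groups spanned at most 1/3 of the interaction, on log2(CPM + 0.5). Control roots at 650 ppm stood apart in 1052 genes (13.6%), SI-9 roots at 650 ppm in 618 (8%), SI-9 roots at 400 ppm in 544 (7.04%) and control roots at 400 ppm in 314 (4.07%). A further 1691 genes (21.9%) were opposed. By group means, their difference between SI-9 and control roots changed sign with CO2. Their mean CO2 difference also had opposite signs in control and SI-9 roots, though not every such difference was itself called. The remaining 3504 genes (45.4%) were mixed. Among all genes tested, called or not, the shares were 7.41% for control roots at 650 ppm, 5% for SI-9 roots at 650 ppm, 4.86% for SI-9 roots at 400 ppm, 3.25% for control roots at 400 ppm, 9.64% opposed and 69.8% mixed. The sort uses the same values as the interaction, so these counts are a description.

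The balance between control and SI-9 groups depended on single libraries. With 23 libraries a control group stood apart in 1366 genes and an SI-9 group in 1162. Without SI-9 library 2 at 400 ppm these numbers were 1109 and 1387, and without SI-9 library 3 at 650 ppm 1277 and 1522. With libraries 1 to 12 only, they were 1537 and 552. Both fits without an SI-9 library keep 1 near-identical set in the affected group, so their calls hold no spread between sets there. Omitting SI-9 library 2 at 400 ppm moved the class of SI-9 roots at 400 ppm from 544 to 824 genes and that of control roots at 650 ppm from 1052 to 822. Of the 1052 genes sorted to control roots at 650 ppm, 916 were still called without that library and 729 were still sorted there. For SI-9 roots at 400 ppm 494 of 544 were still called and 477 still sorted there, and of 1691 opposed genes 1554 were called and 1382 were opposed. Among the 101 genes called with sets as replicates, 42 were sorted to control roots at 650 ppm, 41 were opposed, 12 were mixed, 4 were sorted to SI-9 roots at 650 ppm and 1 each to SI-9 roots and control roots at 400 ppm.

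The simple differences behind the interaction were taken from the same fit. SI-9 differed from control roots in 23.1% of all tested genes at 400 ppm and in 36.5% at 650 ppm. CO2 levels differed in 42.5% in control roots and in 23.9% in SI-9 roots. The CO2 contrast rests on 6 and 5 libraries in control roots and on 3 each in SI-9 roots. Its shares and counts of calls therefore do not show in which roots CO2 acted on more genes. The fungus contrasts rest on SI-9 libraries of unequal depth, with 4497662 to 13867134 gene reads at 400 ppm and 17938957 to 24647735 at 650 ppm. Shares and counts of fungus calls likewise do not show at which CO2 level the fungus acted on more genes. Among the 7723 interaction genes, the fungus effect was called at 650 ppm and not at 400 ppm in 3911, at 400 ppm and not at 650 ppm in 1855, at both with opposite signs in 1110, at both with the same sign in 251 and at neither in 596. The CO2 effect was called in control roots and not in SI-9 roots in 3712 genes, in SI-9 roots and not in control roots in 2102, in both with opposite signs in 1094, in both with the same sign in 364 and in neither in 451. The interaction itself is the test that these effects differ.

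**Figure D1:**
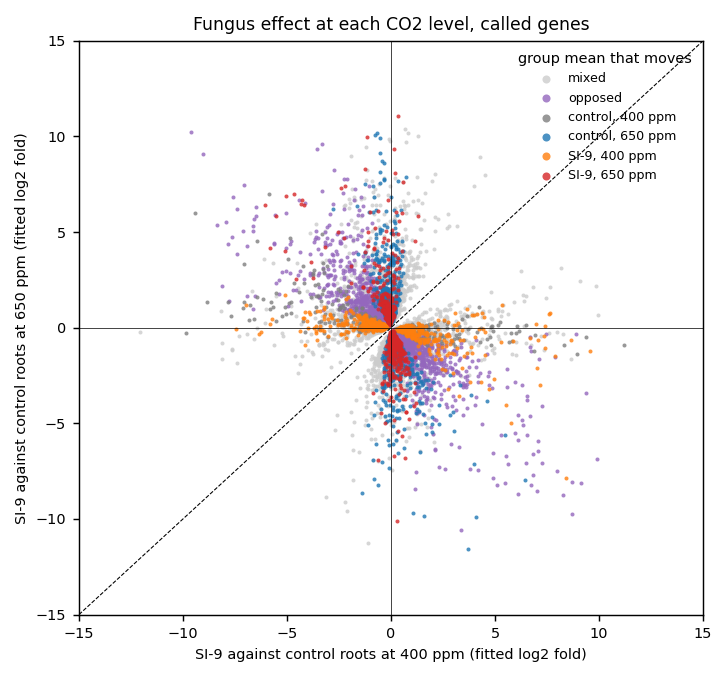
Fitted log2 fold of SI-9 against control roots at 400 ppm (x axis) and at 650 ppm (y axis) for the 7723 called genes, coloured by the group mean that stands apart. The dashed line marks equal effects. The opposed genes lie in the upper left and lower right, and the genes sorted to a group at 1 CO2 level lie near the axis of that level.

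The genes of control roots at 650 ppm were those in which uninoculated roots differed between CO2 levels while the means of SI-9 roots at both levels lay near that of the 400 ppm controls. In 589 of them control roots at 650 ppm were low (positive interaction), with a median CO2 effect of -1.07 in control roots and 0.09 in SI-9 roots, as fitted log2 folds. In the other 463 they were high, with medians of 1.39 and -0.13. A CO2 effect in SI-9 roots was called in 24 and 20 of these genes, and a fungus effect at 400 ppm in 19 and 24.

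The 2 named genes with low levels in control roots at 650 ppm were Eucgr.J02620.1 and Eucgr.G00738.1. Eucgr.J02620.1 stood at 5.32, 8.31 and 11.8 CPM (lowest, median and highest of the 6 libraries) in control roots at 400 ppm, at 0, 0, 0, 0.0416 and 0 in the 5 control libraries at 650 ppm, at 5.52, 5.86 and 6.04 in SI-9 roots at 400 ppm and at 20.2, 17 and 11.2 in SI-9 roots at 650 ppm. Control libraries 1 to 3 at 400 ppm held 10.5 to 11.8 CPM and libraries 4 to 6 held 5.32 to 6.12. The controls at 650 ppm were below every other library, and the SI-9 libraries at 650 ppm were above those at 400 ppm. The interaction was 5.43 on log2(CPM + 0.5). The edgeR test of its fitted value gave an adjusted p of 7.79e-11 with libraries and 0.0097 with sets. Eucgr.G00738.1 stood at 3.06, 11.5 and 19.9 CPM in control roots at 400 ppm, at 0.169, 0, 0, 0 and 0 in control roots at 650 ppm, at 5.96, 10.05 and 4.66 in SI-9 roots at 400 ppm and at 43.2, 39.5 and 3.65 at 650 ppm. Control libraries 1 to 3 at 400 ppm held 18.9 to 19.9 CPM of it and libraries 4 to 6 held 3.06 to 4.08. The SI-9 libraries at 400 ppm lay below the first of these sets and above the second. SI-9 library 3 at 650 ppm stood far below libraries 1 and 2 of its group, but above every control library at 650 ppm. The interaction was 5.53 on log2(CPM + 0.5), and the edgeR test of its fitted value gave an adjusted p of 7.87e-06 with libraries and 0.147 with sets. Eucgr.K02813.1 and Eucgr.B03412.1 showed the reverse, a high level in control roots at 650 ppm. Eucgr.B03412.1 had 0.148, 0.245 and 0.51 CPM in control roots at 400 ppm, 46.8, 45.8, 32.9, 34.2 and 29.9 in control roots at 650 ppm, 0.441, 0.093 and 0.146 in SI-9 roots at 400 ppm and 0.328, 0.0399 and 0.0406 at 650 ppm. Outside the 650 ppm controls no library of these groups reached 1 CPM. Its interaction was -5.81 on log2(CPM + 0.5), with a fitted log2 value of -7.60 with an SE of 1.15 (adjusted p = 5.18e-05 with libraries, 0.0436 with sets). Eucgr.K02813.1 had 24.9, 26.3, 25.6, 28.9 and 27 CPM in control roots at 650 ppm, 0.522, 0.78 and 1.83 at 400 ppm, 3.97, 4.47 and 3.93 in SI-9 roots at 400 ppm and 1.37, 0.958 and 0.162 at 650 ppm. Here the SI-9 roots at 400 ppm also lay above the controls at 400 ppm (adjusted p = 0.00179) without reaching the 650 ppm controls. The fitted interaction was -6.98 with an SE of 0.65 (adjusted p = 1.23e-07 with libraries, 0.0615 with sets).

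**Figure D2:**
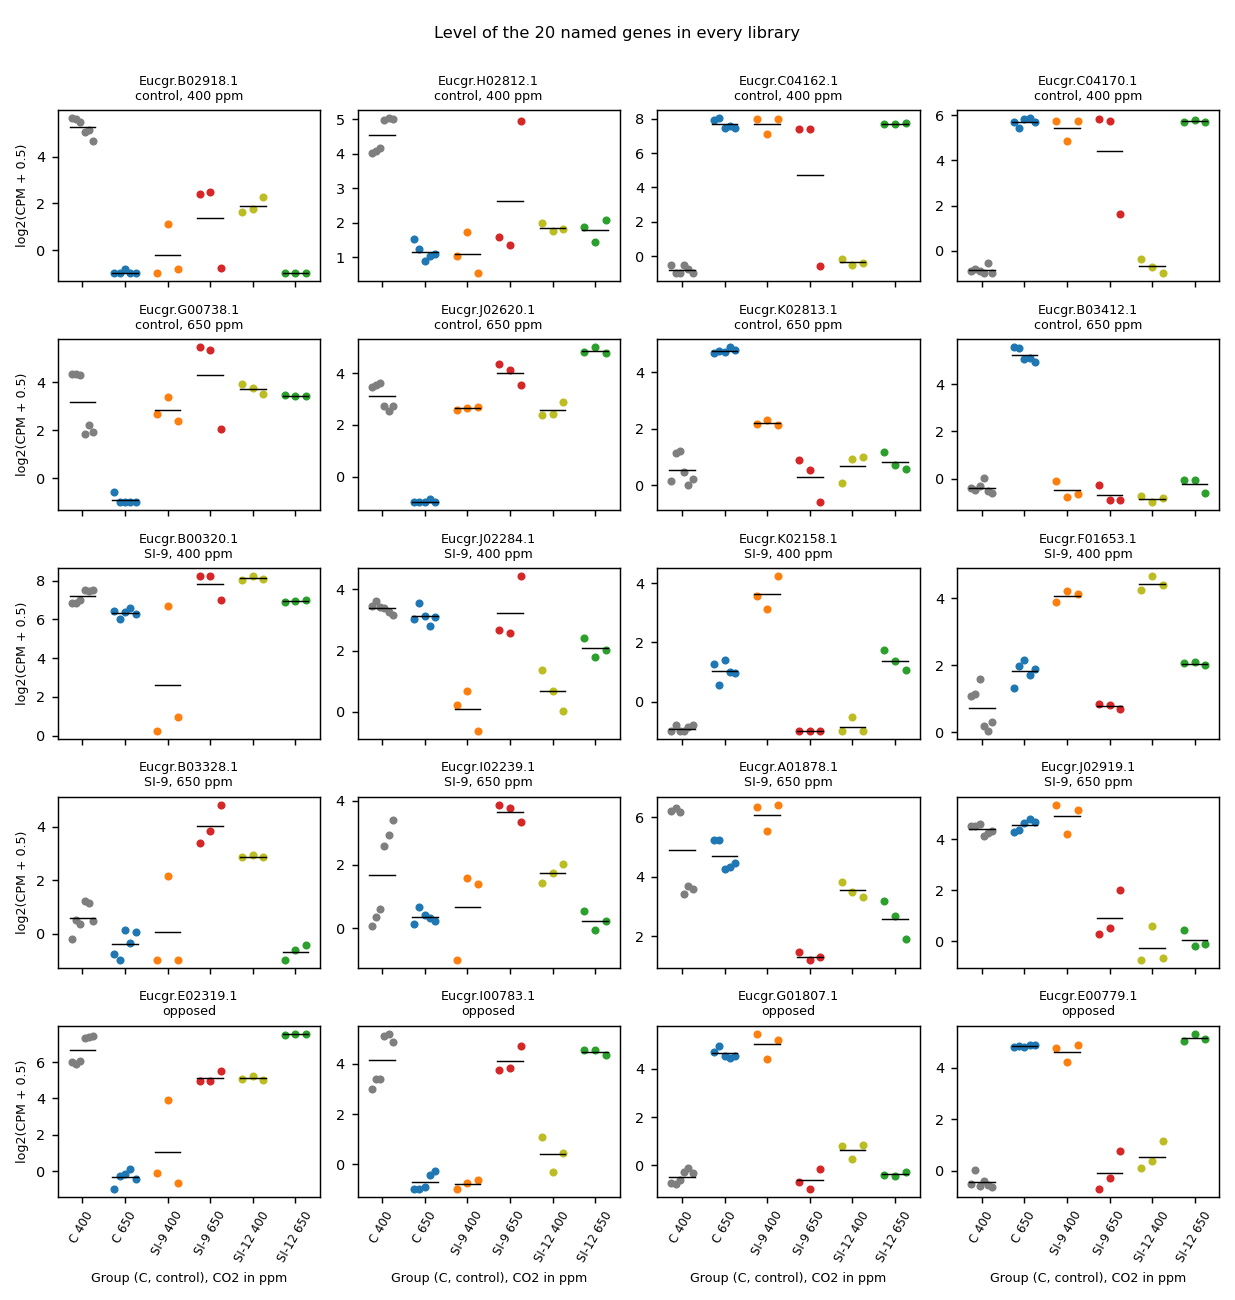
Level of the 20 named genes in every library as log2(CPM + 0.5) (y axis), by group (x axis, C for control, CO2 in ppm). Points are libraries, the line is the group mean, and the second line of each title names the group mean that stands apart. Libraries 4 to 6 of control roots at 400 ppm, library 2 of SI-9 at 400 ppm and library 3 of SI-9 at 650 ppm sit away from the others of their group in several panels.

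Control roots at 400 ppm stood apart in 314 genes. In 185 they were high, with a median log2 fold of SI-9 against control roots of -1.67 at 400 ppm and 0.36 at 650 ppm. In 129 they were low, with medians of 1.64 and -0.19. The median size of the interaction in these genes was 2.04, the highest of the 6 classes. Eucgr.B02918.1 had 24.6, 39 and 49.4 CPM in control roots at 400 ppm (lowest, median and highest), 0, 0, 0.0667, 0 and 0 in control roots at 650 ppm, 0, 1.67 and 0.0728 in SI-9 roots at 400 ppm and 4.7, 5.03 and 0.0812 at 650 ppm. Every control library at 400 ppm exceeded every library of the other 3 groups, and among SI-9 libraries at 650 ppm library 3 was far below libraries 1 and 2. The interaction was 7.80 (adjusted p = 2.49e-06 with libraries, 0.147 with sets). Eucgr.H02812.1 had 15.6, 24.1 and 32.2 CPM in control roots at 400 ppm, 2.36, 1.84, 1.37, 1.54 and 1.63 at 650 ppm, 1.54, 2.79 and 0.947 in SI-9 roots at 400 ppm and 2.52, 2.08 and 30.5 at 650 ppm. Control libraries 1 to 3 at 400 ppm held 15.6 to 17.4 CPM of it and libraries 4 to 6 held 30.8 to 32.2. SI-9 library 3 at 650 ppm lay within the range of the controls at 400 ppm, and libraries 1 and 2 lay below that range. The fitted interaction of 6.53 with an SE of 0.93 (adjusted p = 2.71e-05 with libraries, 0.154 with sets) was 4.18 without SI-9 library 3 at 650 ppm.

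Eucgr.C04162.1 and Eucgr.C04170.1 had the most negative interactions among the genes of control roots at 400 ppm that met the naming rule. Eucgr.C04162.1 stood at 0, 0.0475 and 0.198 CPM in control roots at 400 ppm, 241, 260.0, 178, 186 and 178 at 650 ppm, 254, 136 and 247 in SI-9 roots at 400 ppm and 169, 171 and 0.162 at 650 ppm. Eucgr.C04170.1 stood at 0, 0.0363 and 0.19 CPM in control roots at 400 ppm, 51.4, 43, 56.5, 58 and 52 at 650 ppm, 53.4, 28.4 and 52.4 in SI-9 roots at 400 ppm and 57, 52.7 and 2.56 at 650 ppm. Both genes were near 0 in controls at 400 ppm and abundant in the other groups, with the exception of SI-9 library 3 at 650 ppm. In SI-12 roots the level was near that of the controls at the same CO2, with 0.381, 0.20 and 0.261 CPM of Eucgr.C04162.1 at 400 ppm and 209, 206 and 213 at 650 ppm. The interactions were -11.42 and -7.61, with adjusted p-values of 4.15e-06 and 3.9e-07 with libraries and 0.171 and 0.108 with sets.

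SI-9 roots at 400 ppm stood apart in 544 genes, low in 291 and high in 253. In the genes with low levels the median log2 fold against control roots was -0.90 at 400 ppm and 0.11 at 650 ppm, and in those with high levels 1.39 and -0.28. Eucgr.K02158.1 had 0, 0.0237 and 0.0756 CPM in control roots at 400 ppm, 1.94, 0.974, 2.13, 1.5 and 1.45 at 650 ppm, 11.3, 8.28 and 18.3 in SI-9 roots at 400 ppm and no reads in the 3 SI-9 libraries at 650 ppm. The SI-9 libraries at 400 ppm were above every library of the other groups. At 650 ppm the SI-9 roots were at least 36.2-fold lower than control roots, taking 3 counts summed over the group as the floor, and at least 286-fold lower than SI-9 roots at 400 ppm. The interaction was -6.59 on log2(CPM + 0.5) (adjusted p of the fitted value 8.79e-09 with libraries, 0.0097 with sets). Eucgr.F01653.1 had 14.3, 18.1 and 16.8 CPM in SI-9 roots at 400 ppm, 1.31, 1.28 and 1.14 at 650 ppm, 0.522, 1.18 and 2.5 in control roots at 400 ppm and 2.03, 3.46, 4.0, 2.75 and 3.22 at 650 ppm. The SI-12 libraries at 400 ppm were likewise above those at 650 ppm, with 18.4, 24.7 and 20.6 CPM at 400 ppm and 3.69, 3.77 and 3.49 at 650 ppm. In control roots at 400 ppm, libraries 1 to 3 held 1.62 to 2.5 CPM of it and libraries 4 to 6 held 0.522 to 0.742. The fitted interaction of Eucgr.F01653.1 was -4.95 with an SE of 0.51 (adjusted p = 4.28e-07 with libraries, 0.059 with sets).

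Among genes low in SI-9 roots at 400 ppm, Eucgr.J02284.1 had 0.662, 1.12 and 0.146 CPM there, 5.85, 5.51 and 21.2 in SI-9 roots at 650 ppm, 8.39, 10.2 and 11.8 in control roots at 400 ppm and 7.77, 11.4, 8.37, 6.53 and 8.1 at 650 ppm. All 3 SI-9 libraries at 400 ppm lay below every library of the other 3 groups, and SI-9 library 3 at 650 ppm was above every library of the 4 groups. SI-12 roots at 400 ppm overlapped SI-9 roots of that level, with 2.09, 1.1 and 0.522 CPM. The fitted interaction was 4.40 with an SE of 0.69 (adjusted p = 7.31e-05 with libraries, 0.154 with sets). Eucgr.B00320.1 had 0.662, 102 and 1.46 CPM in SI-9 roots at 400 ppm, 299, 300.4 and 125 at 650 ppm, 114, 150.4 and 184 in control roots at 400 ppm and 84.7, 64.3, 83, 94 and 76.6 at 650 ppm. Its low mean rests on libraries 1 and 3, and library 2 lay within the range of the 11 control libraries, while SI-12 roots at 400 ppm held 262, 298 and 276 CPM. The fitted interaction was 3.64 with an SE of 0.96 with 23 libraries (adjusted p = 0.00719) and 8.50 without library 2 (adjusted p = 2.78e-10), and its call was lost with sets (adjusted p = 0.511) and within libraries 1 to 12 (adjusted p = 0.139).

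SI-9 roots at 650 ppm stood apart in 618 genes, high in 262 and low in 356. The median log2 fold against control roots was 1.15 at 650 ppm and -0.15 at 400 ppm in the genes with high levels, and -0.95 and 0.14 in those with low levels. Eucgr.A01878.1 had 2.3, 1.8 and 1.95 CPM in SI-9 roots at 650 ppm, 80.5, 45.7 and 84.6 at 400 ppm, 37.5, 37.4, 18.9, 19.7 and 21.7 in control roots at 650 ppm and 10.3, 42.1 and 78.4 at 400 ppm. The SI-9 libraries at 650 ppm were below all others, although control libraries 4 to 6 at 400 ppm were at 10.3 to 12.4 CPM against 71.7 to 78.4 in libraries 1 to 3. SI-12 roots held 13.7, 10.8 and 9.47 CPM at 400 ppm and 8.65, 5.92 and 3.24 at 650 ppm. At 650 ppm the SI-12 libraries were thus also below every control library. The fitted interaction with SI-9 was -4.43 with an SE of 0.86 (adjusted p = 0.000646 with libraries, 0.179 with sets). Within libraries 1 to 12 it was -4.12. Eucgr.J02919.1 had 0.711, 0.918 and 3.49 CPM in SI-9 roots at 650 ppm, 39.7, 17.9 and 34.9 at 400 ppm, 19.1, 19.8, 24, 27 and 24.7 in control roots at 650 ppm and 16.8, 20.9 and 23.3 at 400 ppm. SI-12 roots were also low, with 0.0952, 1.0 and 0.131 CPM at 400 ppm and 0.86, 0.384 and 0.415 at 650 ppm. The fitted interaction with SI-9 was -4.31 with an SE of 0.55 (adjusted p = 7.83e-06 with libraries, 0.154 with sets).

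Eucgr.B03328.1 and Eucgr.I02239.1 were high in SI-9 roots at 650 ppm. Eucgr.B03328.1 had 10.1, 13.7 and 27.7 CPM there, 0, 3.91 and 0 at 400 ppm, 0.0844, 0, 0.60, 0.291 and 0.53 in control roots at 650 ppm and 0.363, 0.899 and 1.85 at 400 ppm. The SI-9 libraries at 650 ppm were above every library of the other 3 groups, and at 400 ppm the reads came from library 2 alone, with 6.85, 7.11 and 6.73 CPM in SI-12 roots of that CO2 level. The fitted interaction was 5.18 with an SE of 1.20 (adjusted p = 0.00297 with libraries, 0.345 with sets, 0.107 with DESeq2 on sets). Without library 2 the SI-9 group at 400 ppm had no reads of it, and the fitted value of 12.87 then depends on the prior count and is no bound. Eucgr.I02239.1 had 14.1, 13.1 and 9.5 CPM in SI-9 roots at 650 ppm, 0, 2.51 and 2.11 at 400 ppm, 0.591, 1.08, 0.833, 0.749 and 0.672 in control roots at 650 ppm and 0.561, 3.26 and 9.95 at 400 ppm. Control libraries 4 to 6 at 400 ppm held 5.48 to 9.95 CPM of it and libraries 1 to 3 held 0.561 to 1.03. Its fitted interaction was 5.23 with an SE of 1.09 (adjusted p = 0.00127 with libraries, 0.194 with sets). Within libraries 1 to 12 it was 2.78, and the call was lost (adjusted p = 0.0595).

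The opposed genes were those whose mean difference between SI-9 and control roots changed sign with CO2. In 960 of them SI-9 roots had the lower mean at 400 ppm and the higher at 650 ppm (median log2 folds -0.72 and 0.86). In 731 the reverse held, with medians of 1.08 and -1.14. A fungus effect at 400 ppm was called in 449 of the 960 and 429 of the 731. At 650 ppm it was called in 693 and 499. A CO2 effect was called in 794 and 581 in control roots and in 400 and 360 in SI-9 roots. Eucgr.G01807.1 had 0.0756, 0.228 and 0.427 CPM in control roots at 400 ppm, 43.2, 20.6 and 36.3 in SI-9 roots at 400 ppm, 25.6, 30.7, 23, 21.6 and 23.1 in control roots at 650 ppm and 0.109, 0 and 0.406 in SI-9 roots at 650 ppm. With the fungus Eucgr.G01807.1 rose at 400 ppm (log2 fold 7.25, adjusted p = 3.89e-10) and fell at 650 ppm (log2 fold -7.08, adjusted p = 5.08e-09). The fitted interaction was -14.34 with an SE of 0.74 (adjusted p = 1.67e-11 with libraries, 0.0188 with sets). Eucgr.E00779.1 had 0.148, 0.194 and 0.529 CPM in control roots at 400 ppm, 26.5, 18.1 and 28.7 in SI-9 roots at 400 ppm, 27.7, 27.8, 27.1, 29 and 28.7 in control roots at 650 ppm and 0.109, 0.319 and 1.22 in SI-9 roots at 650 ppm. Both genes were high in control roots at 650 ppm and SI-9 roots at 400 ppm and low in the other 2 groups. SI-12 roots at 650 ppm had 31.8, 38.9 and 34.4 CPM of Eucgr.E00779.1, above all controls of that level, and 0.253, 0.231 and 0.332 CPM of Eucgr.G01807.1, within the range of SI-9 roots of that level. The fitted interaction of Eucgr.E00779.1 was -12.14 with an SE of 0.63 (adjusted p = 1.71e-11 with libraries, 0.0137 with sets).

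Eucgr.E02319.1 and Eucgr.I00783.1 followed the opposite course. Eucgr.E02319.1 had 58.1, 114 and 176 CPM in control roots at 400 ppm, 0.441, 14.4 and 0.146 in SI-9 roots at 400 ppm, 0, 0.325, 0.40, 0.582 and 0.248 in control roots at 650 ppm and 30.1, 31.1 and 45 in SI-9 roots at 650 ppm. It was under 1 CPM in every control at 650 ppm and in SI-9 libraries 1 and 3 at 400 ppm, which held 2 reads each. SI-9 library 2 at 400 ppm held 14.4 CPM. Control libraries 1 to 3 at 400 ppm held 58.1 to 65.6 CPM and libraries 4 to 6 held 163 to 176. SI-12 roots held 33.7, 37.5 and 32.1 CPM at 400 ppm and 183, 187 and 184 at 650 ppm. The fitted interaction was 11.06 with an SE of 1.05 (adjusted p = 1.56e-07 with libraries, 0.102 with sets) and 15.64 without library 2. Eucgr.I00783.1 had 7.56, 19.4 and 36 CPM in control roots at 400 ppm, 0, 0.093 and 0.146 in SI-9 roots at 400 ppm, 0, 0, 0.0333, 0.25 and 0.318 in control roots at 650 ppm and 13.1, 13.9 and 25.9 in SI-9 roots at 650 ppm. The libraries of the 2 high groups were all above those of the 2 low groups. SI-12 roots were likewise higher at 650 ppm, with 1.62, 0.30 and 0.849 CPM of Eucgr.I00783.1 at 400 ppm and 23.1, 23.1 and 19.9 at 650 ppm. The interaction of Eucgr.I00783.1 with SI-9 was 9.79 on log2(CPM + 0.5) (adjusted p of the fitted value 1.52e-08 with libraries, 0.0286 with sets).

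Across the 20 named genes, 6 calls passed with sets as replicates by edgeR (Eucgr.J02620.1, Eucgr.B03412.1, Eucgr.K02158.1, Eucgr.I00783.1, Eucgr.G01807.1 and Eucgr.E00779.1) and 18 by DESeq2 on the same sets. Without SI-9 library 2 at 400 ppm in the sets, 0 of the 20 passed by edgeR, with adjusted p-values of 0.0541 and above, in a fit where that group is 1 set and the spread comes from the other groups.

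The place of each library between the moving group and the rest was then measured, with 0 at the mean of the other 3 groups and 1 at the mean of the moving group. The genes were sorted by the same libraries. Those of the moving group therefore centre on 1, and those of the other 3 groups on 0, by construction. These positions describe how libraries of a group differ from each other and are no separate support for the sort. In the genes of SI-9 roots at 400 ppm, libraries 1, 2 and 3 had median positions of 1.15, 0.75 and 1.10. In those of SI-9 roots at 650 ppm, libraries 1, 2 and 3 stood at 1.07, 1.08 and 0.84. In the genes of control roots at 650 ppm the 5 control libraries lay between 0.97 and 1.06, with both of their sets in that range. In the genes of control roots at 400 ppm the 6 libraries ran from 0.93 to 1.07. There SI-9 library 3 at 650 ppm stood at 0.29 and was nearer to the 400 ppm controls than to the others in 35% of the 314 genes, against 7.32% and 3.5% for libraries 1 and 2. Without this library 232 of the 314 genes were still called and 170 still sorted to that group.

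**Figure D3:**
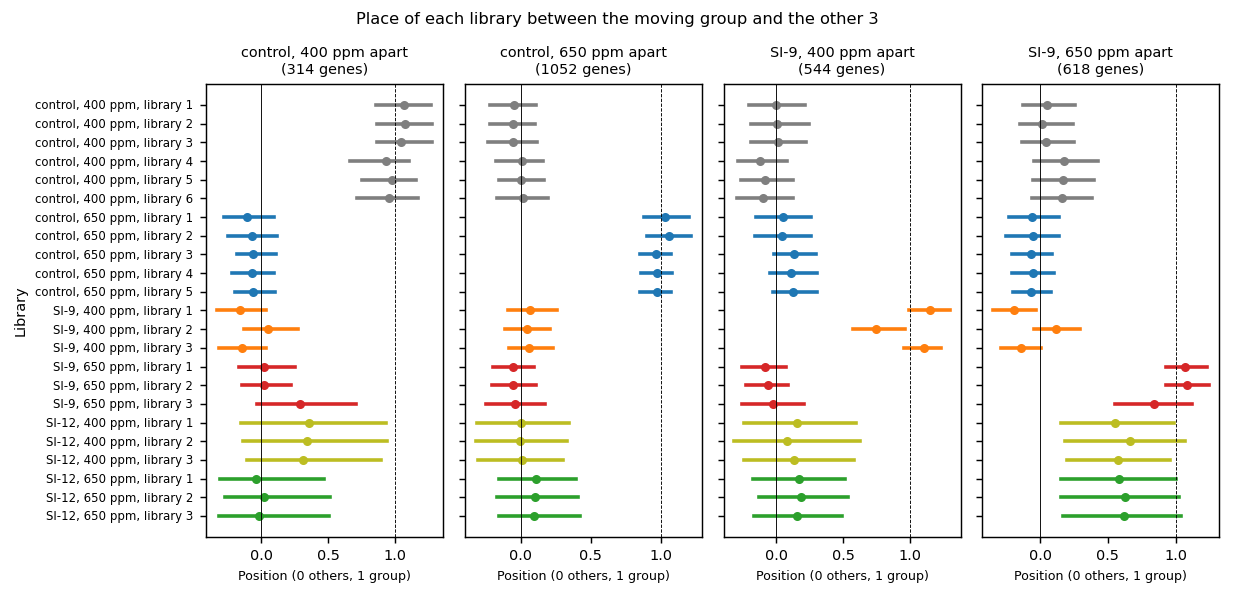
Position of each of the 23 libraries (y axis) in the genes sorted to 1 group (4 panels), with 0 (solid line) the mean of the other 3 groups and 1 (dashed line) the mean of the moving group. Points are medians over the genes of the panel and bars the middle 50% of genes. SI-12 roots lie at 0.55 to 0.66 in the genes of SI-9 roots at 650 ppm and within 0.11 of 0 in those of control roots at 650 ppm.

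SI-12 roots, whose libraries entered the estimate of spread but not the contrast, were placed on the same scale as a description. In the 1052 genes of control roots at 650 ppm, the SI-12 mean at 650 ppm was nearer to the other groups than to the controls of its own CO2 level in all but 192 (18.3%). In the 618 genes of SI-9 roots at 650 ppm, SI-12 roots were nearer to SI-9 at 650 ppm than to the other groups in 351 (56.8%) at 650 ppm and in 350 (56.6%) at 400 ppm. This share was higher for genes low in SI-9 roots at 650 ppm, 63.2% and 65.4%, than for genes high there, 48.1% and 44.7%. In the 544 genes of SI-9 roots at 400 ppm the SI-12 roots of that level were nearer to SI-9 in 143 (26.3%). In the 314 genes of control roots at 400 ppm they were nearer to the control roots in 136 (43.3%).

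Length, level and read uniqueness are given as descriptions. The median gene length was 1509 bases in called genes and 1451 in all genes tested, and the median level over the 4 groups 15.1 and 10.5 CPM. Under 90% of reads matched 1 gene only in 22.4% of called genes, whose counts are uncertain, and in 21.4% of all genes tested, and this share was 26.7% in opposed genes and 30.3% in those of control roots at 400 ppm. The share called ran from 25.6% among IDs with the letter F to 30.1% among those with E. The longest runs of called genes of 1 sign among tested genes in ID order, singled out after the values were seen, were 9 positive genes from Eucgr.H03605.1 to Eucgr.H03614.1 and 9 negative genes from Eucgr.K02171.1 to Eucgr.K02180.1.

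**Figure D4:**
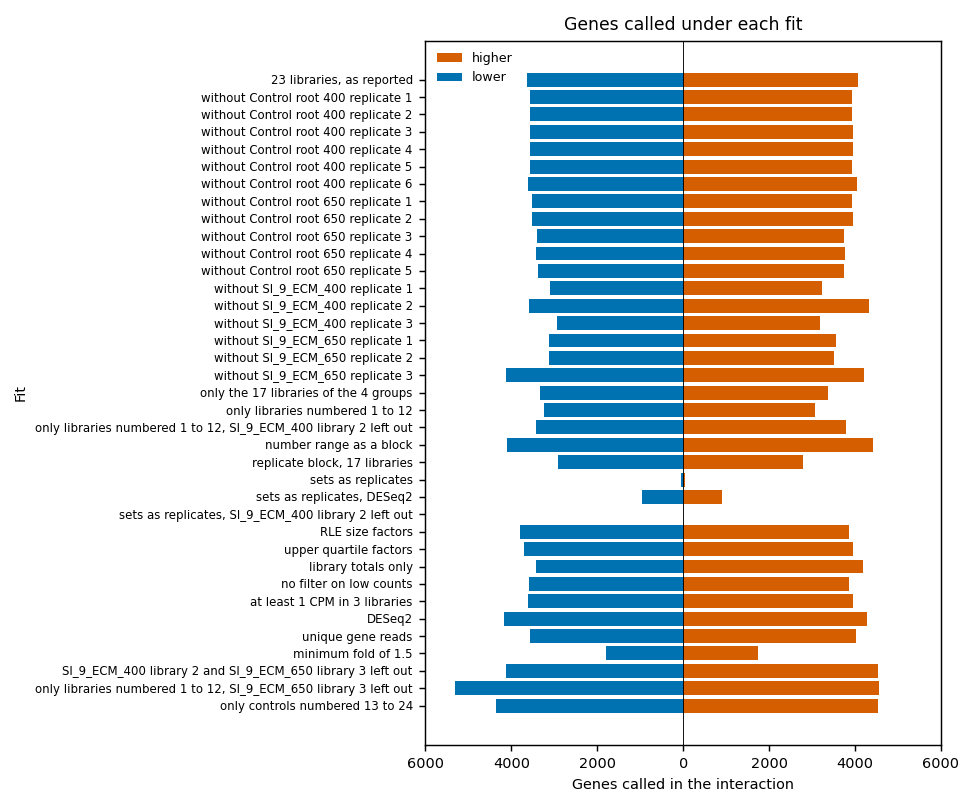
Number of genes called in the interaction (x axis, positive interactions to the right, negative to the left) under each fit (y axis). The fits with libraries as replicates run from 5708 to 9866 genes apart from the one with a minimum fold of 1.5 (3525), and the fits with sets as replicates give 101, 1875 and 0.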

How the data were processed

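Total gene reads were deposited by the authors as whole-number counts per gene beside unique gene reads, the counts of reads that match 1 gene only, per the file headers. Per the headers of 2 control libraries, read pairs were trimmed before counting. The aligner, genome build, annotation version and strand setting are not stated in the labels or headers. The deposited RPKM was not used. Unique reads made up 95.8% to 96.4% of the gene reads in the 17 libraries.

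Counts were tested in R 4.3.3 with edgeR 4.0.16 and limma 3.58.1 (quasi-likelihood test, 2-sided), with TMM factors, filterByExpr and Benjamini-Hochberg adjustment over 27386 genes. All 23 libraries entered 1 fit with a mean for each of the 6 groups (17 residual degrees of freedom, 4 with the 10 sets). Sets join libraries of a group by single linkage at a coefficient of variation under 0.2 over genes with at least 20 reads in both libraries. DESeq2 1.42.0 was an alternative. The fit and the sort were tested on simulated data. The simulated libraries were independent, without near-identical sets, so they do not show how the fit behaves with such sets. Figures were drawn with matplotlib 3.10.9.

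A gene was sorted to a group when the means of the other 3 groups spanned at most 1/3 of the interaction on log2(CPM + 0.5). Otherwise it was opposed when the fungus and CO2 effects both changed sign and every simple difference was at least 1/4 of the interaction, and mixed in all other cases. Named genes are the 2 most positive and the 2 most negative candidates of each class except mixed. Candidates were genes called with and without SI-9 library 2 at 400 ppm, with the same sign for every choice of 1 library per group. They also had at least 1 CPM in 1 group and at least 90% unique reads. The fit without SI-9 library 2 keeps 1 near-identical set in its group, so this rule does not test named genes between sets. Gene lists and markers relied on gene descriptions and found no use here, as 0 of 36376 IDs had a match in the reference table (assembly ASM1654582v1). Members, lists, rules and alternatives were chosen with earlier results of these data known.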

Additional observations from a re-analysis of the deposited data

Results flagged for a closer look

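The difference between SI-9 and control roots itself differed between CO2 levels in each of the 20 named genes, by the edgeR test with 23 libraries. On log2(CPM + 0.5), the interaction was 5.43 for Eucgr.J02620.1, 5.53 for Eucgr.G00738.1, -6.14 for Eucgr.K02813.1 and -5.81 for Eucgr.B03412.1, the genes in which control roots at 650 ppm stood apart. It was 7.80 for Eucgr.B02918.1, 4.93 for Eucgr.H02812.1, -11.42 for Eucgr.C04162.1 and -7.61 for Eucgr.C04170.1, with control roots at 400 ppm apart. With SI-9 roots at 400 ppm apart, it was 6.06 for Eucgr.B00320.1, 3.39 for Eucgr.J02284.1, -6.59 for Eucgr.K02158.1 and -4.37 for Eucgr.F01653.1. With SI-9 roots at 650 ppm apart, it was 4.94 for Eucgr.B03328.1, 4.31 for Eucgr.I02239.1, -4.58 for Eucgr.A01878.1 and -4.13 for Eucgr.J02919.1. The opposed genes had 11.12 for Eucgr.E02319.1, 9.79 for Eucgr.I00783.1, -10.76 for Eucgr.G01807.1 and -9.96 for Eucgr.E00779.1.

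A control library was flagged as lying away from the others of its group in 4 of 40 group levels examined. These were the levels of the 20 named genes in the control groups. SI-9 and SI-12 libraries were not examined for this flag. Control library 3 at 650 ppm held 0.0667 CPM of Eucgr.B02918.1, library 1 at 650 ppm 0.169 CPM of Eucgr.G00738.1 and library 4 at 650 ppm 0.0416 CPM of Eucgr.J02620.1, while the other 4 libraries had no reads. Control library 2 at 400 ppm held 0.529 CPM of Eucgr.E00779.1, against 0.148 to 0.255 in the other 5. The first 3 of these values rest on fewer than 3 reads. Where the other libraries of a group have no reads, any read sets a library apart. The absence of SI-9 libraries from these flags does not mean that they lay close together. For example, SI-9 library 3 at 650 ppm held 0.162 CPM of Eucgr.C04162.1, against 169 and 171 in libraries 1 and 2.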

How the results depend on the processing

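The count of 7723 called genes ran from 6109 to 8336 when 1 library was left out, lowest without SI-9 library 3 at 400 ppm and highest without SI-9 library 3 at 650 ppm, and from 7110 to 7643 when it was a control library. It moved to 101 with sets as replicates, to 1875 with DESeq2 on the sets, to 0 with sets and SI-9 library 2 at 400 ppm left out (4084 at an unadjusted p under 0.05) and to 3525 with a minimum fold of 1.5. Other scalings, filters, DESeq2 on libraries (8468), unique reads, number ranges and fits of fewer libraries stayed within 1.5 times. Among these, chosen after seeing the data, are fits without both SI-9 library 2 at 400 ppm and library 3 at 650 ppm (8644), with controls 13 to 24 only (8887), and with libraries 1 to 12 without SI-9 library 3 at 650 ppm (9866). Replicate numbers did not pair the libraries: same-numbered libraries of different groups correlated with r from -0.124 to 0.177, and 12 of 36 library comparisons were highest with the own number. The fit with the replicate block called 5708. Fits without SI-9 library 2 at 400 ppm or library 3 at 650 ppm keep 1 near-identical set in that group. Their counts hold no spread between sets there.

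The class of SI-9 roots at 400 ppm held 544 genes, 824 without SI-9 library 2, 541 without SI-9 library 3 at 650 ppm and 208 within libraries 1 to 12, and that of SI-9 roots at 650 ppm 618, 981 without library 3, 563 without SI-9 library 2 at 400 ppm and 344 within libraries 1 to 12. A limit of 0.25 in place of 1/3 gave 140 genes for control roots at 400 ppm, 620 for control roots at 650 ppm, 284 for SI-9 roots at 400 ppm and 310 for SI-9 roots at 650 ppm. A limit of 0.4 gave 517 for control roots at 400 ppm and 959 for SI-9 roots at 650 ppm. With sets the classes held 1, 42, 1, 4, 41 and 12 genes, in the order control roots at 400 and 650 ppm, SI-9 roots at 400 and 650 ppm, opposed and mixed. Pseudocounts of 0.1 and 2 CPM kept every class within 1.5 times. Of the 20 named genes, 14 lost their call with sets, 20 with sets without SI-9 library 2 at 400 ppm, where that group is a lone set, and 2 each within libraries 1 to 12 and with DESeq2 on sets. DESeq2 on libraries gave no adjusted p for Eucgr.B00320.1. Levels under 0.099 to 0.662 CPM in a library rest on fewer than 3 reads.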
